A study of Rattus norvegicus with 6 samples.

Results

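Chaperones and protein folding enzymes were examined in the medial prefrontal cortex (mPFC) of rats that had received lysergic acid diethylamide (LSD), a hallucinogen that activates serotonin receptors. They were chosen by gene symbol alone, among the genes that the array's annotation names singly. The rule took heat shock protein (Hsp), Dnaj, Cct, protein disulfide isomerase (Pdia) and Fkbp genes, and of the cyclophilins only Ppia to Ppid. It also took Cryab, Calr, Canx, Stip1, Hsf1, Hsf2 and P4hb. This gave 46 of the 4736 genes on the array, read by 90 of 8740 probe sets. The brightest probe set of a gene stood for it, and no difference between the groups entered the choice. Hsf2 had no probe set named singly for it. Male Sprague-Dawley rats received 1.0 mg/kg LSD or saline intraperitoneally and were killed 90 min later, and 3 Affymetrix arrays were read per group. Sources differ on pooling, with the labels describing tissue of 4 rats per treatment combined before extraction and the publication describing a pool of 2 rats behind each array. Errors between arrays may therefore be technical, and p-values measure only that spread. The second line of each sample description names the other treatment than the title does. Groups here follow the titles; were the descriptions right instead, all signs would be opposite.

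Chaperones hold proteins in a soluble state and help them reach their fold. Hsp70 proteins bind exposed hydrophobic stretches under the control of Hsp40 (Dnaj) partners, which stimulate ATP hydrolysis, and of Hsp110 proteins, which exchange the nucleotide. Hsp90 completes the folding of kinases and steroid receptors, CCT and Hsp60 enclose their clients, and a separate set works in the endoplasmic reticulum (ER). In neurons these proteins also serve synaptic vesicle cycling and receptor export. Separate transcriptional programmes raise them: Hsf1 acts on heat shock elements when cytosolic proteins unfold, and the unfolded protein response acts on ER stress elements.

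Values are log2 values of robust multi-array averaging (RMA), so that 1 unit is a doubling, and changes are LSD minus saline. Correlations between arrays over genes ran from 0.985 to 0.995. Saline 1 had 78 probe sets lying over 1 unit away from the average of the remaining 5, against 2 to 21 elsewhere. LSD 1 was the farthest array in 27.2% of genes and Saline 1 in 26.2%, against 7.94% to 14.9% for the others. Striatal markers were nominally lower in 7 of 7 measured genes (array means of the list from 5.85 to 5.94 in LSD, against 6.11 to 6.15 in saline), and choroid plexus and meninges markers in 5 of 5 (7.31 to 7.43 in LSD, against 7.59 to 7.64 in saline). Markers of neurons were present, with Snap25 averaging 10.75 in LSD and 10.62 in saline arrays. RMA values have no true 0, so none of these markers can be called absent. The difference of the 3' minus the 5' control probe set is larger where RNA is less intact. For beta-actin it was 0.687 ± 0.0412 in LSD and 0.787 ± 0.0439 in saline arrays (SD, n = 3, two-sided exact permutation p = 0.1, the smallest that 20 assignments allow). The same difference was 0.492 in LSD and 0.523 in saline arrays for GAPDH (exact permutation p = 0.7) and 1.835 in LSD and 1.84 in saline arrays for hexokinase (exact permutation p = 1). The part of these differences in the results below was not tested. In bulk tissue, fewer cells of a type and less RNA per cell cannot be told apart.

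No chaperone or folding gene passed an adjusted p of 0.05. In limma, adjusted over 4736 genes, 0 of 46 passed, where the background was 0.0211% of genes. The lowest adjusted p of a member was 0.951, for Cct6a. At an unadjusted limma p below 0.05 there were 3 members, Hspa4, Cct6a and Hspb1, or 6.52%, against 3.63% of all genes. Cct6a and Hspb1 were the 2 higher ones (2.47% of all genes were) and Hspa4 the lower one (1.16% of all genes were). Of the 46, 22 were nominally higher and 24 lower after LSD (47.8% higher, against 51.7% of all genes), and the median change was -0.01, against 0.0056 over all genes. The array groups did not overlap in 5 members (10.9%, against 10.3% of all genes), 3 higher (6.97% of all genes) and 2 lower (3.34% of all genes) after LSD. The shares of higher and of non-overlapping members lay near those of all genes. The larger share at an unadjusted limma p below 0.05 rested on 3 genes, none of which passed. None of these shares is a result about the members.

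By their brightest probe sets, most members were bounded closely. The 95% interval lay within a 1.5-fold difference in either direction for 41 of 46 members (89.1%, against 94% of all genes). The 5 whose interval reached further were Hspb6, Hsp90ab1, Canx, Ppib and Fkbp3. Some further probe sets of the bounded members also reached past that limit. The interval ran from 0.535- to 0.734-fold in AF077354_at of Hspa4 and from 0.455- to 1.53-fold in S78556_at of Hspa9. It ran from 0.80- to 1.599-fold in rc_AA998683_g_at of Hspb1 and from 0.961- to 1.547-fold in rc_AI176170_at of Fkbp1a. In 22 members the fitted change was smaller than 0.1 units, and in 6 it was 0.2 or more.

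**Figure D1:**
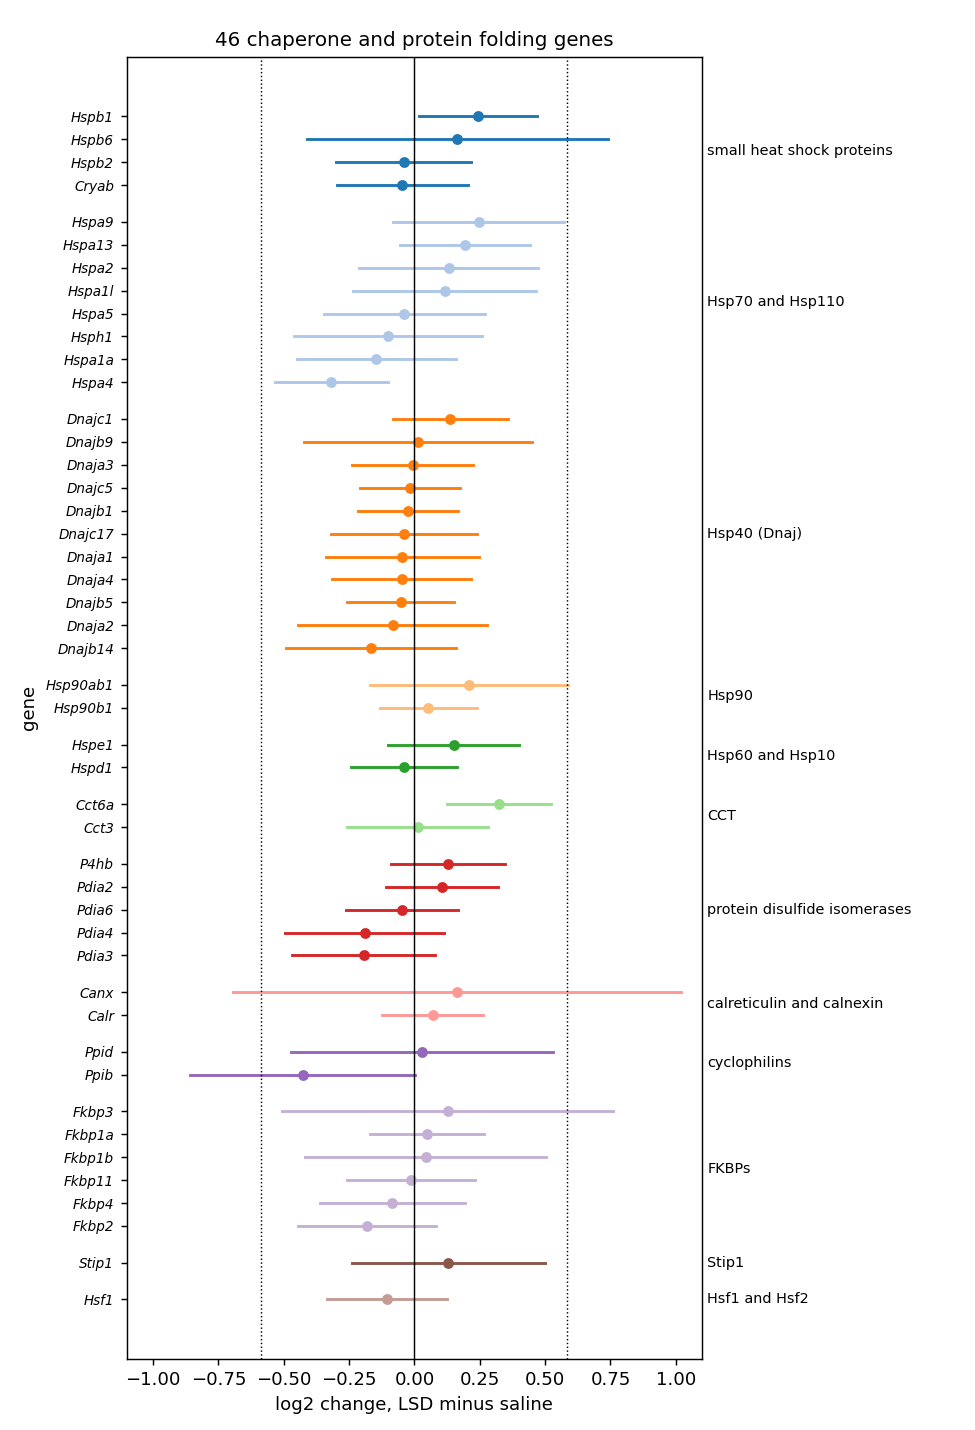
Log2 change of LSD minus saline (horizontal axis) for the 46 genes (vertical axis), ordered by role, with points for the limma estimate and bars for its 95% interval (n = 3 arrays per group). Each gene is shown by its brightest probe set. Dotted lines mark a 1.5-fold difference in either direction, and the intervals of 41 genes lie between them.

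Hspa4, an Hsp110-type exchange factor for Hsp70, was lower on every LSD array. It stood at 6.28, 6.34 and 6.25 on the LSD arrays, against 6.47, 6.61 and 6.74 on the saline arrays. The change was -0.32 ± 0.094 (SE), a ratio of 0.803 with a 95% interval from 0.692 to 0.931, and it did not pass (limma adjusted p = 0.971). Its further probe set, AF077354_at, built from the same sequence record, read 3.47, 3.67 and 3.68 on the LSD arrays, against 4.18, 4.39 and 4.28 on the saline arrays. The groups were well apart, and the change of -0.68 ± 0.099 (SE, ratio 0.626) was the largest in size among the 90 member probe sets. It ranked 10 among 8740 probe sets by p, with a limma adjusted p of 0.116, and its signal was dim (percentile 21.2 of probe sets), where RMA compresses folds. With array weights it was the 1 member probe set to pass (adjusted p = 0.00706), a setting under which 42 probe sets passed in place of 6. Over its other alternatives the adjusted p ran from 0.0688 to 0.598, and the change stayed between -0.73 and -0.61 whichever array was left out. The probe set was singled out after its value had been seen.

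Cct6a, which encodes the zeta subunit of the cytosolic chaperonin CCT that folds actin and tubulin, was nominally higher after LSD. Its values were 6.58, 6.56 and 6.74 on the LSD arrays, against 6.30, 6.37 and 6.25 on the saline arrays, with a clear gap between the groups. The change was 0.32 ± 0.087 (SE), or 1.25-fold, and it moved only between 0.26 and 0.36 when an array was left out. Cct6a was read by only 1 probe set, so no further probe set could be compared. The other measured subunit, Cct3, read 6.31, 6.69 and 6.46 on the LSD arrays, against 6.35, 6.46 and 6.60 on the saline arrays, which overlap (change 0.01 ± 0.12, SE), and the difference between the subunits was not tested.

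Hspb1, the small heat shock protein that binds unfolding proteins and actin, lay at 7.93, 7.90 and 7.89 on the LSD arrays, against 7.76, 7.76 and 7.48 on the saline arrays. The LSD arrays were nearly identical, and Saline 3 was the low one. The change was 0.24 ± 0.098 (SE), or 1.18-fold, and 0.15 without Saline 3. Its 3 further probe sets overlapped between the groups, with changes of 0.16, 0.18 and -0.06. A probe set that the annotation shares between Hspb1 and Asb2 differed by -0.11 and overlapped.

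Ppib, the cyclophilin that isomerises prolines in the ER, and Hspa9, the mitochondrial Hsp70, were also apart between the groups, and in both Saline 1 lay far from the other arrays. Ppib read 7.88, 8.0 and 7.90 on the LSD arrays, against 8.84, 8.06 and 8.17 on the saline arrays. Its change of -0.43 ± 0.19 (SE) had the largest size among the members' standing probe sets, was -0.18 without Saline 1, and the other Ppib probe set, AF071225_at, differed by 0.13. Hspa9 read 5.45, 5.27 and 5.28 on the LSD arrays, against 4.76, 5.27 and 5.24 on the saline arrays. Its lowest LSD value and its highest saline value were equal after rounding. The change was 0.25 ± 0.14 (SE) and 0.08 without Saline 1, and its 2 further probe sets differed by -0.26 and -0.10. Hspa9 was named after its values were seen.

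**Figure D2:**
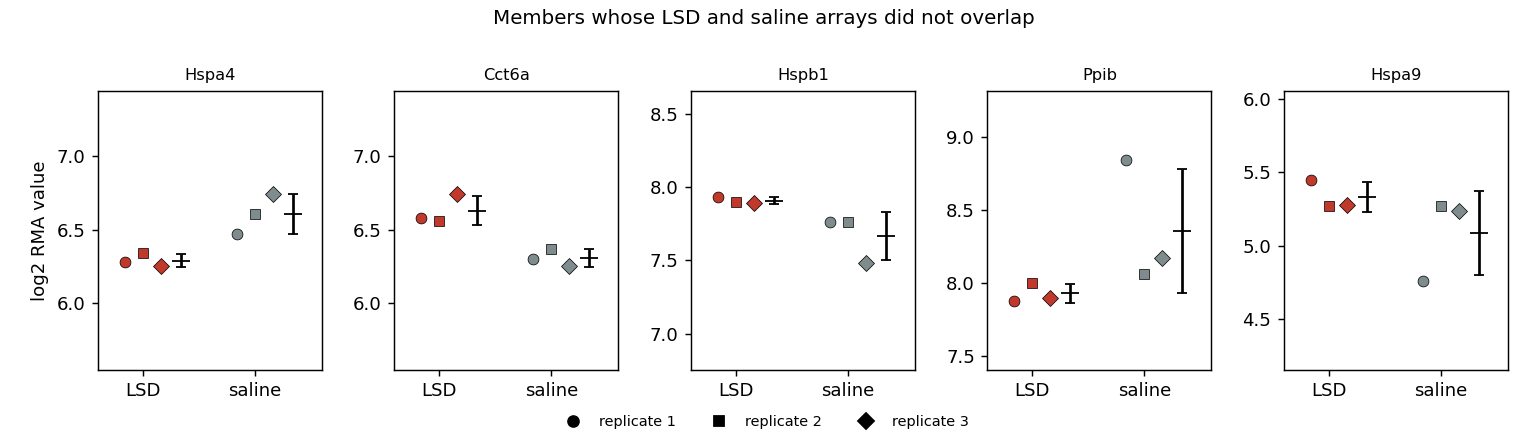
Log2 RMA values (vertical axis) of the 5 genes whose groups did not overlap, with LSD in red and saline in grey, a symbol per replicate, and bars for mean and SD (n = 3). Hspa4 and Ppib are lower and Cct6a, Hspb1 and Hspa9 higher on the LSD arrays, and Saline 1 (circle) lies far from the other saline arrays in Ppib and Hspa9.

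Beside Hspb1, the small heat shock proteins showed no shared direction, with 2 of 4 nominally higher. Cryab, alpha B-crystallin, was at 6.91, 6.56 and 6.69 on the LSD arrays, against 6.66, 6.86 and 6.77 on the saline arrays. Hspb2 differed by -0.04. Hspb6 was at 6.21, 5.96 and 5.99 on the LSD arrays, against 5.22, 6.26 and 6.18 on the saline arrays, so that Saline 1 was lowest by a wide margin. Its change of 0.16 became -0.17 without that array.

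Of the 8 Hsp70 and Hsp110 genes, 4 were nominally higher and 4 lower. Hspa1a, the Hsp70 that heat and proteotoxic stress induce most, read 4.54, 4.55 and 4.42 on the LSD arrays, against 4.36, 4.88 and 4.72 on the saline arrays. The groups overlapped (change -0.15 ± 0.13, SE), and the 95% interval of this dim probe set (percentile 26.4 of genes) ended at 1.12-fold. The change was -0.03 without Saline 2 and -0.29 without Saline 1. Probe sets that the annotation gives to several genes were no members. The 4 shared by Hspa1a and its near-identical copy Hspa1b, whose signals cannot be told apart, differed by -0.16, -0.11, -0.08 and 0.13, and all overlapped between the groups. Their 95% intervals ended between 1.11- and 1.30-fold. Hspa5, the ER Hsp70 known as BiP and the standard marker of the unfolded protein response, was at 7.64, 7.88 and 7.47 on the LSD arrays, against 7.64, 7.92 and 7.55 on the saline arrays. The groups covered almost the same range (change -0.04 ± 0.13, SE, 95% interval 0.788- to 1.205-fold). Its further probe sets differed by -0.02 and -0.13. The latter, S63521_r_at, did not overlap but was among the dimmest on the array (percentile 0.0801 of probe sets). Hsph1, a stress-induced Hsp110, read 8.32, 8.52 and 8.27 on the LSD arrays, against 8.12, 8.55 and 8.75 on the saline arrays, with both extremes in saline. Its change was -0.10 ± 0.16 (SE), and its other probe set differed by 0.12 and overlapped. Hspa13, an Hsp70 relative of microsomes, stood at 3.88, 3.82 and 3.82 on the LSD arrays, against 3.47, 3.86 and 3.62 on the saline arrays (change 0.19 ± 0.11, SE). Hspa1l, best known from testis, read 4.55, 4.01 and 4.02 on the LSD arrays, against 3.98, 4.21 and 4.04 on the saline arrays, so that LSD 1 alone was high (change 0.12 ± 0.15, SE). Hspa2, also known from testis, differed by 0.13 and overlapped. The constitutive Hsp70 gene Hspa8 was read only by probe sets shared with Haus8l2, which differed by -0.07 and 0.16.

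By their standing probe sets, 9 of the 11 Hsp40 genes were nominally lower, by at most 0.17, and the median change was -0.04. Dnajb1, the stress-induced partner of Hsp70, read 7.10, 7.27 and 7.15 on the LSD arrays, against 7.19, 7.15 and 7.25 on the saline arrays. Dnajc5, the cysteine string protein of synaptic vesicles, differed by -0.02 ± 0.083 (SE), which bounds it between 0.866- and 1.13-fold. Dnajb14, an ER membrane protein, had the largest nominal difference of the group, at -0.17 ± 0.14 (SE), with 4.88, 4.68 and 4.97 on the LSD arrays, against 4.76, 5.29 and 4.98 on the saline arrays. Without Saline 2 that difference was -0.03, and without Saline 1 it was -0.29. Dnajc1, also of the ER membrane, read 4.70, 4.60 and 4.81 on the LSD arrays, against 4.45, 4.60 and 4.66 on the saline arrays (change 0.14 ± 0.095, SE). Dnajb9, an ER protein of the unfolded protein response, differed by 0.01. The remaining Hsp40 genes were Dnaja1 (-0.05), Dnaja2 (-0.08), Dnaja3 (-0.01), Dnaja4 (-0.05), Dnajb5 (-0.05) and Dnajc17 (-0.04), and the standing probe set of each of the 11 overlapped between LSD and saline. The further probe sets of these genes leaned the other way, with 6 of 7 higher, between -0.04 and 0.20. Among them U95727_at of Dnaja2 did not overlap and was higher by 0.19.

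Hsp90ab1, the constitutive cytosolic Hsp90, read 10.78, 11.41 and 10.86 on the LSD arrays, against 10.93, 10.83 and 10.66 on the saline arrays. A single array, LSD 2, lay apart, and the change of 0.21 was 0.01 without it. Of its further probe sets, rc_AI008074_s_at was at 8.44, 8.62 and 8.18 on the LSD arrays, against 8.19, 8.0 and 7.80 on the saline arrays, a change of 0.42 ± 0.14 (SE, limma adjusted p = 0.981) with overlap at LSD 3 and Saline 1. The other 2 probe sets differed by -0.09 and -0.05. Hsp90b1, the ER form known as Grp94, stood at 8.39, 8.47 and 8.40 on the LSD arrays, against 8.31, 8.45 and 8.33 on the saline arrays (0.05 ± 0.081, SE). Its further probe sets differed by -0.24, with no overlap between the groups, and by 0.18.

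The stress-induced cytosolic Hsp90aa1 was no member, because the annotation pairs its probe sets with a pseudogene or with other genes, but its pair of probe sets with the pseudogene is given for the contrast it shows. The probe set rc_AA944397_at read 8.69, 8.80 and 8.43 on the LSD arrays, against 8.26, 8.04 and 7.90 on the saline arrays. The probe set rc_AI176546_at read 9.92, 9.91 and 9.52 on the LSD arrays, against 10, 10.28 and 10.22 on the saline arrays. The groups did not overlap in either, yet the changes were 0.57 ± 0.13 and -0.38 ± 0.13 (SE), in opposite directions, and neither passed (limma adjusted p = 0.599 and 0.981). Another probe set, rc_AI176460_s_at, which the annotation gives to Hsp90aa1 and other genes, among them ribosomal RNA and globin genes, read 11.81, 11.76 and 11.71 on the LSD arrays, against 11.32, 11.14 and 11.26 on the saline arrays (change 0.52 ± 0.086, SE, limma adjusted p = 0.177). Its signal cannot be assigned to 1 gene. Since the pair shared only with the pseudogene differ in sign, no direction is given for Hsp90aa1.

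The mitochondrial chaperonin genes Hspd1 (Hsp60) and Hspe1 (Hsp10) are transcribed from a shared promoter region in opposite directions. Hspd1 was at 8.53, 8.58 and 8.46 on the LSD arrays, against 8.50, 8.69 and 8.50 on the saline arrays. Hspe1 was at 8.42, 8.26 and 8.14 on the LSD arrays, against 7.95, 8.20 and 8.21 on the saline arrays. Neither differed beyond the spread of its arrays (changes -0.04 ± 0.088 and 0.15 ± 0.11, SE).

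Folding enzymes and lectin chaperones of the ER went in different directions. Pdia3, which works with calreticulin and calnexin on glycoproteins, read 7.61, 7.75 and 7.35 on the LSD arrays, against 7.88, 7.76 and 7.64 on the saline arrays (change -0.19 ± 0.12, SE). Its other probe set differed by 0.16. Pdia4 read 4.56, 4.32 and 4.49 on the LSD arrays, against 4.37, 4.83 and 4.75 on the saline arrays (change -0.19 ± 0.13, SE). P4hb, the abundant protein disulfide isomerase, differed by 0.13, Pdia2 by 0.11 and Pdia6 by -0.05. Calr, the soluble lectin chaperone, was at 9.34, 9.42 and 9.29 on the LSD arrays, against 9.35, 9.30 and 9.20 on the saline arrays, and its probe set D78308_g_at was higher on all LSD arrays by 0.17. Canx, its membrane-bound counterpart, had the widest 95% interval of the members. It read 9.0, 8.83 and 8.04 on the LSD arrays, against 9.23, 8.41 and 7.73 on the saline arrays. The lowest array of either group was the one numbered 3, and the 95% interval of its change ran from 0.619- to 2.03-fold. Over the 16 members that reside in the ER (assigned after the values were seen), 8 had positive and 8 negative changes, and their median was -0.00016.

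The remaining members among prolyl isomerases and co-chaperones did not separate the groups by their standing probe sets. Fkbp2, of the ER, read 8.72, 8.86 and 8.87 on the LSD arrays, against 8.77, 9.15 and 9.08 on the saline arrays (change -0.18 ± 0.11, SE), and its other probe set differed by -0.10. Fkbp4, a co-chaperone of Hsp90 in steroid receptor complexes, read 6.91, 7.08 and 7.14 on the LSD arrays, against 6.88, 7.22 and 7.27 on the saline arrays. Fkbp1a, the target of rapamycin and FK506 in brain, differed by 0.05 ± 0.095 (SE), and its relative Fkbp1b by 0.04. The further Fkbp1a probe sets differed by 0.29, -0.01 and -0.04, and all overlapped between the groups. Fkbp3 differed by 0.13 with LSD arrays that ran from 3.45 to 4.75, and Fkbp11 by -0.01. Ppid, a cyclophilin that binds Hsp90, read 6.14, 6.33 and 5.53 on the LSD arrays, against 6.31, 5.80 and 5.80 on the saline arrays. The cyclophilin gene Ppia was no member, because its probe sets are shared with other genes. Of these, rc_AA818152_f_at differed by -0.32 with no overlap (limma adjusted p = 0.981). The others differed by 0.12, 0.06 and 0.07 and overlapped. Stip1, the adaptor that passes clients from Hsp70 to Hsp90, read 6.79, 7.11 and 6.47 on the LSD arrays, against 6.81, 6.69 and 6.49 on the saline arrays, and its change of 0.13 became -0.03 without LSD 2. Hsf1, the master regulator of the heat shock response, read 7.84, 7.72 and 7.92 on the LSD arrays, against 7.79, 8.06 and 7.95 on the saline arrays (change -0.10 ± 0.10, SE), and all 3 of its probe sets were nominally lower. Its own activity is set largely after translation, so a transcript level does not report it.

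Probe sets of a single gene often disagreed. Of 26 members with several probe sets, 7 had the same sign in all of them (26.9%, against 51% of the 1565 such genes on the array). Of the 44 further probe sets, 21 shared the sign of the brightest one (47.7%, against 57.5%). There were 44 further probe sets for 26 members, against 2270 for 1565 genes, so members had more of them per gene. The span of changes within a gene had a median of 0.19 among members and 0.12 among all genes, and was widest for Ppib (0.56), Hspa9 (0.51) and Hsp90ab1 (0.51). The genes with a single sign were Hspb2, Hspa4, Hspa5, Fkbp2 and Hsf1, all lower, and P4hb and Calr, both higher. For Hspa5 this includes the very dim S63521_r_at. Over probe sets, 0 of 90 passed in limma, where 0.0686% of all probe sets did, 6 of 90 had an unadjusted p below 0.05 (6.67%, against 3.92%), and 10 of 90 did not overlap (11.1%, against 10.4%).

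**Figure D3:**
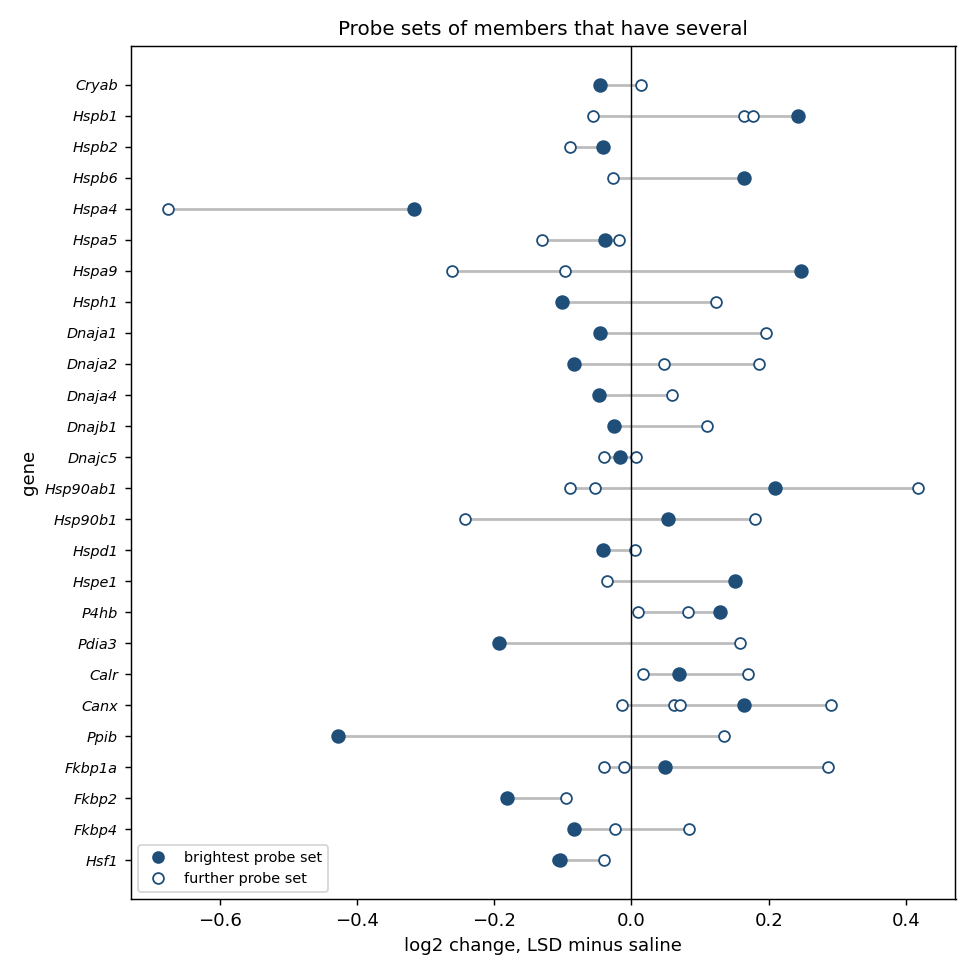
Log2 change of LSD minus saline (horizontal axis) of every probe set of the 26 genes with several (vertical axis), with filled points for the brightest and open points for further probe sets. The Hspa4 probe sets lie at -0.32 and -0.68, while those of Ppib, Hspa9, Hsp90ab1 and Pdia3 spread to either side of 0.

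**Figure D4:**
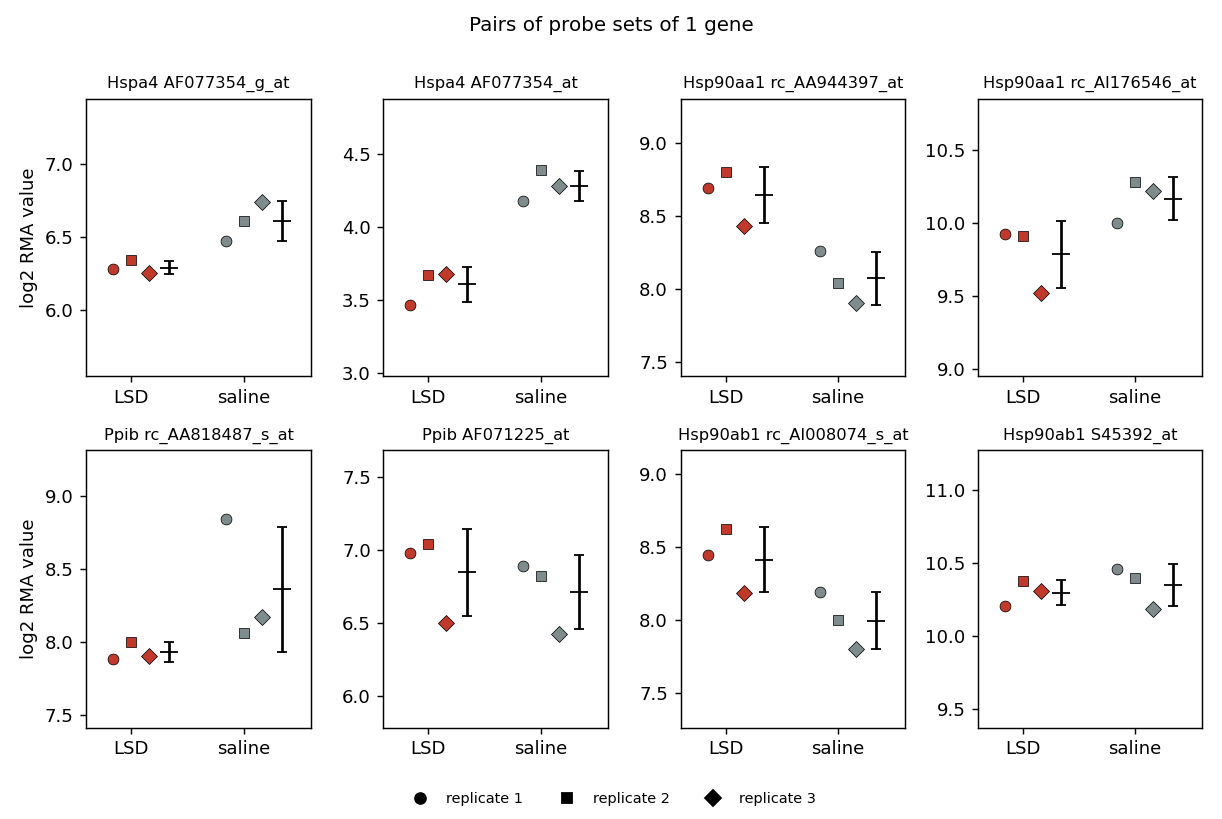
Log2 RMA values (vertical axis, panels of equal span) of pairs of probe sets that the annotation gives to 1 gene, with LSD in red and saline in grey, a symbol per replicate and bars for mean and SD (n = 3). Both Hspa4 probe sets are lower on the LSD arrays, whereas those of Hsp90aa1, which the annotation also gives to a pseudogene, separate the groups in opposite directions.

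Promoters, which the choice by symbol did not use, were searched for the letters that the known stress responses read. Windows from 250 bases before to 50 bases after the start came from RefSeq on the GRCr8 assembly for 39 of 46 members (not for Cryab, Hspb2, Dnaja2, Pdia3, Pdia6, Fkbp3 and Hsf1), and both strands were searched. The heat shock element core GAANNTTC was found in 10 of 39 members (25.6%, against 8.59% of all 33469 windows) and its other phase TTCNNGAA in 9 (23.1%, against 8.77%). These can overlap, and 3 units in a row (GAANNTTC followed after 2 bases by GAA), a motif added after the values were seen, were found in Hsph1, Dnaja1, Hspd1 and Hspe1 (10.3%, against 0.798%). Hspd1 and Hspe1 share their promoter region, so the same letters may count for both. Members counted 1 window per gene, whereas the background counted every window. The ER stress element (CCAAT followed after 9 bases by CCACG) was found in Hspa5, Hsp90b1, Calr and Canx (10.3%, against 0.0657%). Its CCAAT part alone was found in 21 of 39 (53.8%, against 37.5%). Of the 39, 13 had either heat shock core, 4 the ER stress element, and 22 neither, Hspa1a and Hspa4 among them. These counts describe letters in a window and do not show that a factor was bound.

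The changes of genes with these motifs are given as a description. Of 10 with GAANNTTC, 5 had positive and 5 negative changes, with a median of 0.05 and a range from -0.10 to 0.25. Of 9 with TTCNNGAA, 6 were higher and 3 lower, with a median of 0.13, between -0.10 and 0.32 (Cct6a). Of the 4 with 3 units, 1 was higher and 3 lower, between -0.10 and 0.15. Of the 4 with the ER stress element, 3 were nominally higher and 1 lower, between -0.04 and 0.16. None passed the test.

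The 250 bases before the start are shown for 4 genes with heat shock element letters (Hsph1, Hspd1, Hspb1 and Cct6a), for 2 with the ER stress element (Hspa5 and Hsp90b1) and for Hspa4, whose groups did not overlap in either probe set though neither passed the test, and which had none of these letters in the stretch shown. They lie at chr12:10427118-10427367 (plus strand), chr9:64084038-64084287 (minus strand), chr12:26432302-26432551 (minus strand), chr12:32519073-32519322 (minus strand), chr3:38452766-38453015 (plus strand), chr7:23012294-23012543 (minus strand) and chr10:37949836-37950085 (minus strand). Each runs 5' to 3' toward the start, and capitals mark a match on either strand, to GAANNTTC or TTCNNGAA in the first 4 and to the ER stress element in Hspa5 and Hsp90b1.
Hsph1: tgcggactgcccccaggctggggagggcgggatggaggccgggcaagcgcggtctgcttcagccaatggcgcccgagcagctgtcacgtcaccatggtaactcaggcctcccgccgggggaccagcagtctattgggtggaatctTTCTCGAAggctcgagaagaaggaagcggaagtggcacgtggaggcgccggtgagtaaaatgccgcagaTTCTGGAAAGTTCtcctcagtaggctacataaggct
Hspd1: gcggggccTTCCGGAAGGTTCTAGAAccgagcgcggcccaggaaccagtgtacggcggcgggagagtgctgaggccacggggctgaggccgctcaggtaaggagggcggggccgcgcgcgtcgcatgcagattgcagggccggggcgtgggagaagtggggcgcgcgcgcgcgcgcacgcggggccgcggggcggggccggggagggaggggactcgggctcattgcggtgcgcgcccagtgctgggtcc
Hspb1: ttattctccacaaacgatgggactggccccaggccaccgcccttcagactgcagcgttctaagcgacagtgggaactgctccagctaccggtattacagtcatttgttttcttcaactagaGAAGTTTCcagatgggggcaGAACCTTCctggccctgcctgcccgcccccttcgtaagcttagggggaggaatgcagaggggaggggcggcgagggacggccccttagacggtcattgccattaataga
Cct6a: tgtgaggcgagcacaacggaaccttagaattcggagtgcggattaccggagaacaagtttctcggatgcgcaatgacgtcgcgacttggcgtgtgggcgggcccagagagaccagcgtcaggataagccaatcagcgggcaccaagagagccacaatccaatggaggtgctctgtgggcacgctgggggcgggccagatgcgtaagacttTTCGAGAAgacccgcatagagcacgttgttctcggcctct
Hspa5: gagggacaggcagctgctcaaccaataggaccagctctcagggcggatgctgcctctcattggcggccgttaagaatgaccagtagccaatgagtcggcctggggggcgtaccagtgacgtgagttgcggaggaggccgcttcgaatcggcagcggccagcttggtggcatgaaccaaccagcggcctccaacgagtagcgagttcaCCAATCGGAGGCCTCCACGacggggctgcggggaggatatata
Hsp90b1: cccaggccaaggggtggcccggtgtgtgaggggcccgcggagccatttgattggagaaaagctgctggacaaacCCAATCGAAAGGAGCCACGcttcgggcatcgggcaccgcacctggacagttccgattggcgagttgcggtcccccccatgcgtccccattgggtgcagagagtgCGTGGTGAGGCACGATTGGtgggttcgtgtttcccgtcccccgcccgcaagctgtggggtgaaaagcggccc
Hspa4: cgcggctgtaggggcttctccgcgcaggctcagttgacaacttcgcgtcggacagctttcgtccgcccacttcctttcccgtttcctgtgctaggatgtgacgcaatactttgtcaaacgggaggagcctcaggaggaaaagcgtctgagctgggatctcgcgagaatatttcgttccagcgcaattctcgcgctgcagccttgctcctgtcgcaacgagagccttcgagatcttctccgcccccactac

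The stretches differ in how their matches lie. Hspd1 has a run of alternating TTC and GAA units far from its start, in the region it shares with Hspe1, and Hsp90b1 has the ER stress element on either strand. The groups overlapped in the standing probe sets of both.

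Genes outside the rule that serve the same pathways were also tested. Of the Hsp70 and Hsp90 co-chaperones listed, 5 of 17 were measured, 3 nominally higher and 2 lower, with a median change of 0.04. Sgta, which hands membrane proteins to their insertion machinery, differed by 0.25 ± 0.089 (SE), with no overlap, and Bag6, its partner, by -0.14. Of the ER stress response, 7 of 24 were measured, 2 higher and 5 lower (median -0.05). Trib3, a pseudokinase gene switched on late in ER stress, differed by 0.22 ± 0.088 (SE), with no overlap, and Ero1b, an ER oxidase, by -0.16.

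Of 13 other secretory and extracellular chaperones listed, 5 were measured and all 5 were nominally lower (median -0.09). Erp29, an ER chaperone of the thioredoxin fold, differed by -0.25 ± 0.11 (SE), and the collagen chaperone Serpinh1 by -0.10, and both overlapped between the groups. Of 18 heat or oxidative stress response genes, 11 were measured, 4 higher and 7 lower (median -0.08). Sqstm1, which encodes an autophagy receptor, differed by -0.13 and Gadd45a, a growth arrest gene, by -0.26 ± 0.24 (SE). Gadd45a read 6.03, 6.13 and 5.7 on the LSD arrays, against 6.82, 5.92 and 5.9 on the saline arrays. The groups overlapped, and Saline 1 alone was high. Of prefoldin and Tcp1, Pfdn2 alone was measured, at -0.01. In limma, 0 genes of these 5 lists passed over all genes, and 3 of 29 measured had an unadjusted p below 0.05 (Sgta, Trib3 and Erp29; 10.3%, against 3.63% of all genes). Groups did not overlap in 2 of the 29 (6.9%, against 10.3% of all genes).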

How the data were processed

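The deposited values were log2 values that the authors obtained by RMA in the affy package (version not given in the sources used here), which corrects background, normalizes quantiles across arrays and summarises each probe set. A change common to most transcripts cannot be seen after that step, folds of dim probe sets are compressed, and arrays have no read depth, so that their number limits the precision. Of 8799 probe sets, 59 controls were left out. Probe sets with 1 symbol in the platform annotation (7006) gave 4736 genes, and gene IDs matched to RefSeq GRCr8 changed 0 symbols. Names ending in _s_at can match several transcripts. The LSD against saline comparison used limma (version 3.58.1, R version 4.3.3) with lmFit and eBayes and no covariates, and two-sided p-values were adjusted by Benjamini-Hochberg across all genes or, for probe sets, across all of them. The fitting step was tested on simulated data.

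Members, lists, roles and tests were chosen with earlier results of these data known. By the rule for named genes, values on every array are given for the 2 members of lowest p per role and for a short list of well-known chaperones where measured, and the 2 genes of lowest p per pathway list are named. Exceptions are stated in the text. Alternatives covered rescaling, dropping dim probe sets, a trended robust prior, weighting of arrays, blocking on the replicate number, other rules for a gene's probe set, ranks with an exact test, and omission of single arrays. No detection calls and no protein sequences were used.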

Additional observations from a re-analysis of the deposited data

How the results depend on the processing

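Member genes past the threshold numbered 0 under every alternative run. Over all genes the count was 1, and it was 5 with array weights, 6 with an intensity trend and robust prior, 4 with probe sets averaged per gene, 4 above the median level, 2 without shared-transcript probe sets, 6 over all probe sets and 0 with cyclic loess, a repeated quantile step or any array left out. It was also 0 with the exact rank test, which cannot go below p = 0.1 and so says nothing of stability. With the replicate number as a block it was 0. Correlations of same-numbered arrays' deviations over all genes were of mixed sign (-0.0238, -0.229 and 0.154). In Canx the array numbered 3 was lowest in both groups. By their standing probe sets the same held in Hspa5, Dnaja2, Fkbp1b, Pdia3, Pdia6, Calr, Stip1 and Hspb1. It did not hold in other members, such as Hspa4 and Cct3. Fits without the block count any order shared by the groups as spread between arrays. Whether the numbers pair the arrays was not tested further. Over probe sets the count of 6 became 42 with array weights, 20 with the trend, 16 above the median level, 0 with the replicate block and 0 to 3 with an array left out, and member probe sets numbered 1 with array weights (Hspa4). The median member change ran between -0.0371 and 0.0593 with an array left out. Without Saline 1, 7 members had an unadjusted p below 0.05 (15.2%, against 441 genes or 9.31% of all genes; Hspa4 lowest, adjusted p = 0.498).

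Signs turned with array weights in Dnajb1 (0.0144), Hspa1l (-0.0272), Hspa5 (0.0695) and Hspb6 (-0.13), with cyclic loess in Cct3 (-0.00092), with the mean of probe sets in Dnajb1 (0.0424), Hsp90b1 (-0.0026) and Hsph1 (0.0111), with the most variable probe set in Cryab (0.0136), Dnajb1 (0.11), Fkbp4 (0.0842) and Hspd1 (0.0049), and without shared-transcript probe sets in Hsp90ab1 (-0.0538), Pdia3 (0.16) and Ppib (0.13). With an array left out, the ranges that crossed 0 were Canx -0.20 to 0.55, Cct3 -0.0892 to 0.10, Cryab -0.14 to 0.0358, Dnajb1 -0.0748 to 0.0121, Hspa1l -0.0644 to 0.21, Hspa5 -0.14 to 0.0709, Hspb6 -0.17 to 0.35, Hspd1 -0.0724 to 0.0216, Hsph1 -0.28 to 0.0362, Ppid -0.14 to 0.26 and Stip1 -0.0288 to 0.29. The cause of these turns was not tested. Settings over probe sets and for the further Hspa4 probe set, and arrays left out for members such as Hspa9, were chosen after seeing the data.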
